A study of Rattus norvegicus with 18 samples.

Results

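The transcripts of 9 genes that encode neurotrophic factors or their receptors were followed in the oculomotor nucleus and the spinal cord of ageing rats. They were the ligands Cntf, Igf1 and Bdnf and the receptors Cntfr, Ntrk2, Ntrk3, Ret, Gfra1 and Igf1r. A probe set was included if its gene symbol in the platform annotation was that of a listed gene, which gave 17 of the 15923 probe sets and 9 of the 10412 genes on the array. Of these, 12 probe sets of 7 genes had a mean log2 signal over the filter of 7.459 and were tested among 9482 probe sets in all. Both Bdnf probe sets, the only Ntrk3 probe set, Ntrk2 probe set 3 and Igf1 probe set 2 did not pass, and are described with the others. Probe sets of a gene are numbered by falling mean signal, and a signal of 1 probe set is never set against that of another.

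The oculomotor nucleus, a midbrain group of motor neurons that turn the eyes, was dissected at 6, 18 and 30 months, and so was the spinal cord, which holds the motor neurons of trunk and limbs. The 6 groups had 3 arrays each, and each array held RNA pooled from 4 animals. The rats, which the description of 2 samples gives as F344BN, carried no treatment or transgene that the labels name. The labels do not say whether an oculomotor and a cord pool share animals, and p-values measure the spread between pools, not between animals.

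Neurotrophic factors are secreted proteins that keep neurons alive and shape their axons and synapses. BDNF signals through the receptor tyrosine kinase TrkB, the product of Ntrk2, and neurotrophin-3 through TrkC, the product of Ntrk3. CNTF, made in the nervous system by astrocytes and Schwann cells, needs the binding subunit Cntfr together with the signalling subunits gp130 and Lifr. GDNF binds the membrane-anchored Gfra1, which recruits the tyrosine kinase Ret, and IGF-1 acts through the tyrosine kinase Igf1r. Members of all 4 of these systems act on motor neurons.

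The signals came from arrays of like brightness, with medians of 252.1 to 275.3 and with 18.0% to 21.0% of probe sets at or under the floor of 66.4. A principal component analysis was run on the log2 signals after each group's mean was subtracted. On its first component, which held 27.1% of this variance within groups, 4 arrays stood apart. The scores within a group balance out, so a low score on an array goes with higher scores on the others of its group. The third oculomotor array of 30 months, the first cord array of 6 months and the third cord array of both later ages scored -16.56 to -12.14, and no other array scored under -1.70. At the other end, the second oculomotor array of 30 months scored 14.22, against 9.01 or less on every other array. It had the highest median signal and the smallest share at the floor. Without it, 1 member probe set and not 3 was called between the tissues at 30 months, Cntf (-0.88 on the log2 scale). Skeletal muscle transcripts were high in 3 cord arrays: Acta1, muscle actin, was measured at 2007 and 3631 in replicates 1 and 2 of the 6-month cord and at 1529 in replicate 2 of the 18-month cord, against at most 503.5 on any other array. The choroid plexus transcript Ttr reached 3720 and 1658 in the first oculomotor arrays of 6 and 18 months. The ratio of 3′ to 5′ signal of hexokinase, a sign of RNA degradation or of uneven labelling, was 1.57 to 1.64, 1.75 to 1.89 and 1.76 to 1.91 at 6, 18 and 30 months in the oculomotor nucleus, where the 6-month arrays lay below all later ones. In the cord it was 1.93 to 2.12, 1.67 to 1.98 and 1.66 to 2.19 at these ages, and its part in the results below was not tested. Of the motor neuron and cholinergic markers, 5 of 5 tested were lower in the oculomotor nucleus than in the cord, as were 23.6% of all probe sets. Chat, the enzyme that makes acetylcholine, had a median signal of 135 in the oculomotor nucleus and of 342 in the cord, and the motor neuron transcription factor Isl1 had a median under the floor in both, 50.6 and 64.6. All 5 midbrain dopamine neuron markers were higher in the oculomotor nucleus, as were 23.6% of all probe sets, with a median log2 difference of 2.83. Among them, Th had a median signal of 2450 there and Slc6a3 of 1393. The oculomotor samples thus held dopamine neuron transcripts too, and are named here by their label. Some of these markers passed the filter only through the tissue where they were high. Calca had a median of 55.9 in the oculomotor nucleus, and Th had 91.2 in the cord. Such counts are not independent of the filter.

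The first question was how the trophic transcripts differ between the samples labelled oculomotor nucleus and those of the cord. Averaged over the 3 ages, Cntf, Igf1 probe set 1 and Ret probe set 2 were lower in the oculomotor nucleus, and Ntrk2 probe sets 1 and 2 were higher. A difference was called at a Benjamini-Hochberg adjusted p under 0.05 over all probe sets tested with limma. Thus 5 of the 12 probe sets (41.7%) were called, near the 47.2% of all probe sets, and the 2 higher and 3 lower stand beside 23.6% of all probe sets in the higher and 23.6% in the lower direction. Counted by gene, on its probe set of highest mean, 1 was higher and 2 were lower of 7 tested. The median log2 difference of the 12 was -0.14, against 0.01 over all probe sets. In 3 of the 12, the 9 arrays of one tissue did not overlap with the 9 of the other, which held for 14.2% of all probe sets. Within single ages the counts called were 4, 4 and 3 at 6, 18 and 30 months, beside backgrounds of 26.1%, 26.2% and 21.0%. Where arrays of the tissues are said not to overlap within an age, 3 stand against 3. No share over all probe sets is given for this, and it is a description and not a test.

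Among the ligands, Cntf (probe set 1368658_at) had the largest tissue difference of the 12 probe sets at each of the 3 ages. Its signals in the oculomotor nucleus were 260.2, 267 and 284 at 6 months, 249, 289.6 and 278 at 18 months, with 322, 329 and 319.5 at 30 months. In the cord they were 558, 658 and 679 at 6 months, 640.1, 496 and 537 at 18 months, with 523, 636 and 619.8 at 30 months. The highest oculomotor array, at 329, was below the lowest cord array, at 496. Over the 9 arrays of each tissue the signal averaged 289 ± 29.1 in the oculomotor nucleus and 594 ± 66.2 in the cord (SD). The log2 difference was -1.04 ± 0.07 (SE), 2.06-fold lower in the oculomotor nucleus (adjusted p = 5.38e-10). It was -1.22, -1.03 and -0.87 at 6, 18 and 30 months, each called. Ordered by mean, the groups ran from 270 ± 12.5 (oculomotor nucleus, 6 months) through 272 ± 21.0 and 324 ± 4.92 in that tissue at 18 and 30 months to 558 ± 74.3, 593 ± 60.9 and 632 ± 64.6 in the cord at 18, 30 and 6 months (SD, n = 3 each). The 3 cord means lay within 1 SD of their neighbours, as did the oculomotor means at 6 and 18 months.

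Most markers tested for the cells known to make CNTF were also lower in the oculomotor nucleus. This was not particular to those cells. Of 6 oligodendrocyte markers tested, 4 were lower and 0 higher, and of 5 vascular markers 4 and 0. Over all probe sets the share was 23.6% in each direction. Of 8 astrocyte markers tested, 6 were lower and 1 higher in the oculomotor nucleus, beside 23.6% of all probe sets in each direction. Their summed signal was 32030 to 40850 there and 36750 to 53330 in the cord. The higher one was Slc1a3, a glutamate transporter, with a log2 difference of 1.18, while Gfap, the astrocyte filament, differed by -0.92. Of the Schwann cell and nerve root markers, 4 of 7 had a probe set and 1 passed the filter, Pmp22, which was lower (log2 difference -1.41). The sum of those 4 was 1417 to 1673 in the oculomotor nucleus and 3159 to 5568 in the cord, without overlap. Most of it was Pmp22, with means of 1245 and 3348. Drp2 averaged 161 and 171, and Prx and Egr2 reached under the floor in the oculomotor nucleus, at 48.3 and 45.2. In pooled tissue, fewer cells of a type and less transcript per cell cannot be told apart, and the part of these cells in the Cntf difference was not tested.

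The promoter windows of Cntf and Igf1 are shown because these are the ligands whose signals differed between the tissues in the main test. Each runs from 250 bases before to 50 bases after the start of the gene in RefSeq, build GRCr8, 5′ to 3′ on the gene's strand, and capitals mark matches on either strand to TGAGTCA (the AP-1 motif) or to ACAATG or ACAAAG (motifs of SOX factors). The Cntf window lies at chr1:219314486-219314785 on the minus strand, and the Igf1 window at chr7:24172282-24172581 on the plus strand.
Cntf: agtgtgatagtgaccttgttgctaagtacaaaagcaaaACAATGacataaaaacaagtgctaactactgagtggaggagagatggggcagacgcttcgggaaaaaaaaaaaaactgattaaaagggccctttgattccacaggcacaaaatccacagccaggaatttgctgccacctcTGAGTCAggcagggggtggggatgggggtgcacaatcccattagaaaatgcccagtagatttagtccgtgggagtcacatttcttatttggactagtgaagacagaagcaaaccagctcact
Igf1: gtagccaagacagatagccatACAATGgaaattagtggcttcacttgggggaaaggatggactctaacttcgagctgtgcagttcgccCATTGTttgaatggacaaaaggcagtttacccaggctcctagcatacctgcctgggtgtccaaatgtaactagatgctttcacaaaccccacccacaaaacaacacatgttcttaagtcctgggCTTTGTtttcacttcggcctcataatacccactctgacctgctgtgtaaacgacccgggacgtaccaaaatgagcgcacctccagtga

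The Cntf window held 1 match to TGAGTCA, 72 bases before the start, and 1 to ACAATG, 212 bases before it. The Igf1 window held 2 matches to ACAATG, 229 and 162 bases before the start and the second as its reverse complement CATTGT, and 1 to ACAAAG as CTTTGT, 38 bases before it. Of 33465 such windows over all genes, 4.63% held TGAGTCA, 13.2% ACAATG and 18.8% ACAAAG, on either strand and with overlaps between motifs allowed. Neither window held TATAAA, the TATA box, or CCAAT, which 14.2% and 37.5% of windows held. GC content was 45.3% in the Cntf window and 48.3% in the Igf1 window, 42.7% to 57.7% in 6 Bdnf windows, 63.0% in that of Gfra1, 74.0% in that of Ret and 78.0% in that of Igf1r. A match describes these letters and is not evidence of binding.

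Igf1 probe set 1 (1388469_at) measures the growth factor that acts through Igf1r. Its oculomotor signals were 179, 159.6 and 192 at 6 months, 135, 127 and 174 at 18 months, with 157, 160.1 and 149 at 30 months. Its cord signals were 401, 272 and 152 at 6 months, 239, 222 and 205 at 18 months, with 247, 295 and 228 at 30 months. The tissues did not overlap at 18 or at 30 months. At 6 months the lowest cord array, replicate 3, was below all 3 oculomotor arrays. The log2 difference over the ages was -0.62 ± 0.14 (SE; adjusted p = 0.000998), 1.54-fold lower in the oculomotor nucleus. This probe set passed the filter of 7.459 through the cord, with a mean log2 signal of 7.30 in the oculomotor nucleus and 7.93 in the cord, so its test is not independent of the filter. In the fit without the filter the adjusted p was 0.00547. The other 11 probe sets that passed had means over the filter in both tissues. By age it was -0.53 at 6 months (adjusted p = 0.111), -0.62 at 18 months (adjusted p = 0.0631) and -0.72 at 30 months (adjusted p = 0.0387). The call at 30 months was lost without replicate 1, 2 or 3 of the oculomotor nucleus or replicate 1 or 2 of the cord, each in turn, with adjusted p up to 0.133 and log2 differences of -0.74 to -0.61.

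The second Igf1 probe set (1370333_a_at) was under the filter, with signals of 21.3 to 183 in the oculomotor nucleus and 114 to 256 in the cord. Of the 9 oculomotor arrays 2 were at or under the floor, and of the cord arrays none. In a fit without the filter, in which 32.5% of all probe sets were called for the tissue difference over the ages, its log2 difference was -0.75 (adjusted p = 0.00919). The 2 Igf1 probe sets thus differed between the tissues in the same direction, although across the 9 arrays of each tissue their log2 signals correlated at r = -0.08 in the oculomotor nucleus and 0.31 in the cord.

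The highest Igf1 probe set 1 signals in the cord at 6 months came from the 2 arrays rich in muscle transcripts. The summed signal of 7 skeletal muscle markers was 552.7 to 661 in the oculomotor nucleus at 6 months, and 4762, 9277 and 655 in cord replicates 1, 2 and 3 of that age. Without the 3 muscle-rich cord arrays, the log2 difference of Igf1 probe set 1 over the ages was -0.37 (adjusted p = 0.0116), and at 6 months, where 1 cord array remained, it was 0.21. Markers of other cell types moved with the tissue too. Of the microglia markers, 7 of 7 tested were lower in the oculomotor nucleus, beside 23.6% of all probe sets. Their summed signals were 5779 to 10260 there and 7876 to 15510 in the cord. Of the meninges markers, 8 of 8 were lower, with sums of 7285 to 11950 in the oculomotor nucleus and 14580 to 24890 in the cord. Some passed the filter only through the cord, such as Col1a1, with an oculomotor median of 118. Some of the summed markers fell under the floor on an oculomotor array, with lowest signals of 23.5 for Cd68 and 59.3 for Col1a1. Most of the microglia sums was Ctss, with means of 5188 in the oculomotor nucleus and 6315 in the cord. Most of the meninges sums was Ptgds, with means of 7887 and 12830. The part of these markers in the Igf1 difference was not tested.

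Bdnf was weakly detected. Bdnf probe set 1 (1368677_at) gave oculomotor signals of 125, 139 and 129 at 6 months, 170.0, 106 and 114 at 18 months, with 96.2, 149.7 and 134 at 30 months. In the cord it had 57.7, 46.0 and 15.0 at 6 months, 31.7, 47.2 and 55.9 at 18 months, with 23.5, 13.1 and 77.9 at 30 months. Every oculomotor array was above every cord array, and 8 of 9 cord arrays were at or under the floor of 66.4, the exception being replicate 3 at 30 months. With signals under the floor raised to it, the oculomotor signal was at least 1.89-fold higher (adjusted p = 7.59e-06 in the fit without the filter). Those 8 cord values are thereby made equal, so this p does not measure the spread between cord pools. Bdnf probe set 2 (1368678_at) did not show this difference. It ranged over 55.8 to 106 in the oculomotor nucleus and 45.4 to 96.3 in the cord, with 4 and 5 of 9 arrays at or under the floor and an adjusted p of 0.694.

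**Figure D1:**
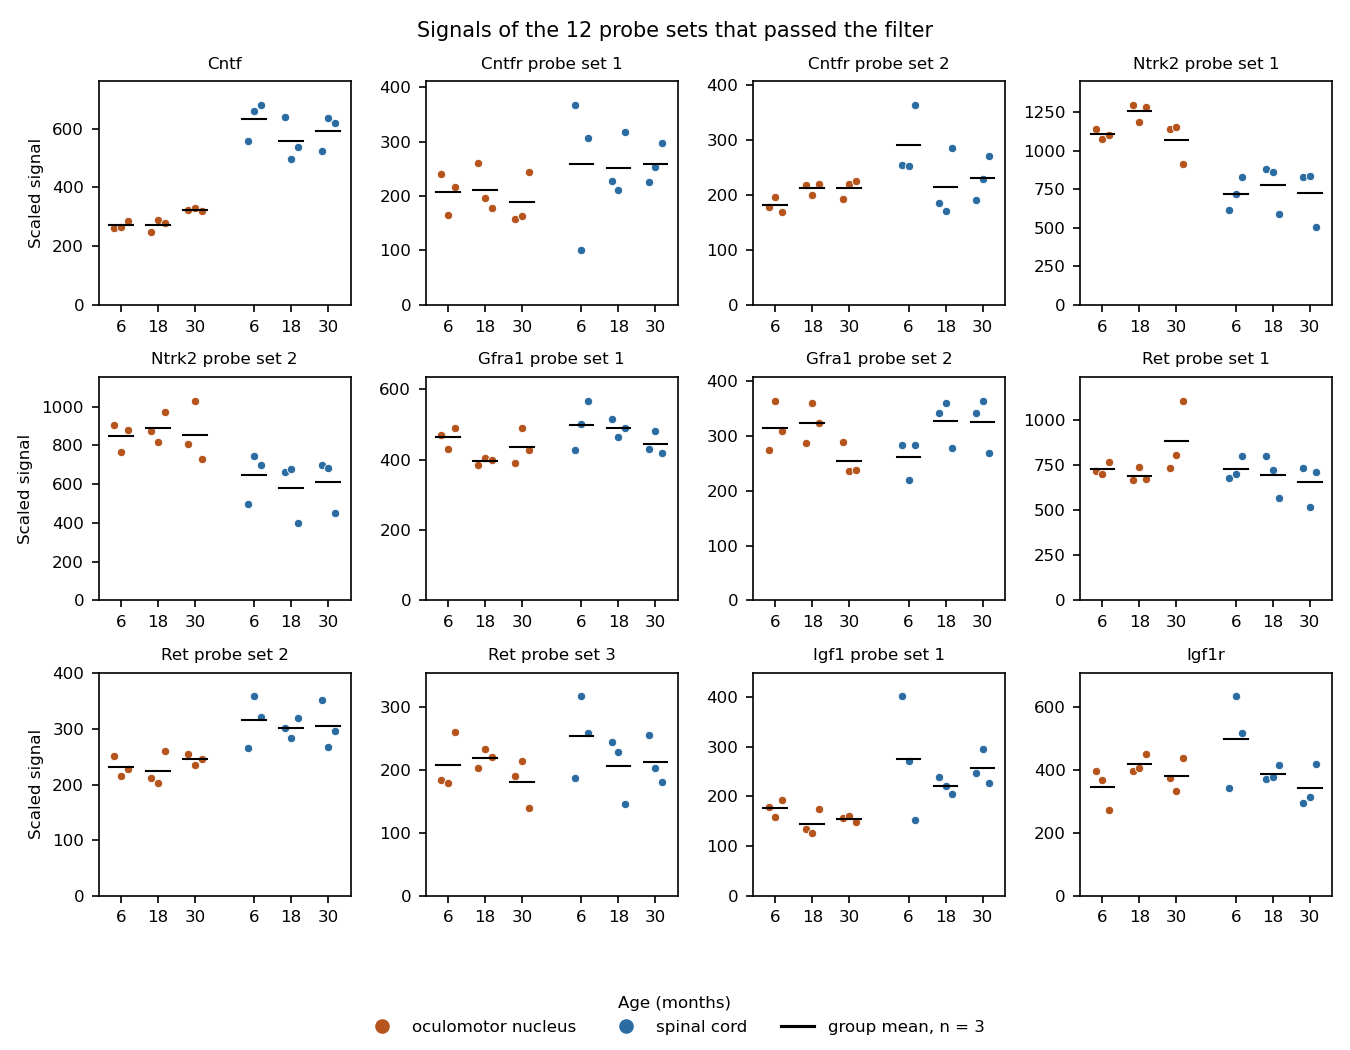
Scaled signal (linear, vertical axes from 0) of each of the 12 probe sets that passed the filter, against age in months, with the oculomotor nucleus on the left and the spinal cord on the right of each panel. Points are arrays and lines are means of 3 arrays. Cntf and Ret probe set 2 lie lower, and Ntrk2 probe set 1 higher, on all 9 oculomotor arrays than on any cord array.

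Among the receptors, Ntrk2, which encodes the BDNF receptor TrkB, was higher in the oculomotor nucleus. Ntrk2 probe set 1 (1370687_a_at) gave 1140, 1076 and 1099 there at 6 months, 1293, 1183 and 1286 at 18 months, with 1143, 1150 and 910.3 at 30 months. In the cord it had 618, 717 and 827 at 6 months, 878, 858 and 586 at 18 months, with 829, 834 and 508 at 30 months. The lowest oculomotor array, at 910.3, was above the highest cord array, at 878. The log2 difference over the ages was 0.64 ± 0.10 (SE; adjusted p = 3.44e-05), 1.56-fold higher, and it was called at each age, with 0.63, 0.72 and 0.59 at 6, 18 and 30 months.

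Ntrk2 probe set 2 (1368972_at) differed the same way. Its signals were 906, 766 and 878 in the oculomotor nucleus at 6 months, 874, 818 and 974 at 18 months, with 805, 1029 and 732 at 30 months. The cord had 499.5, 744 and 699 at 6 months, 663, 676 and 399 at 18 months, with 699, 681 and 449 at 30 months. The tissues did not overlap within any age, but the lowest oculomotor array, at 732, was below the highest cord array, at 744. The log2 difference was 0.52 ± 0.12 (SE; adjusted p = 0.0012). Within ages it passed the test at 18 months (0.65, adjusted p = 0.0226), and was 0.41 at 6 months (adjusted p = 0.154) and 0.50 at 30 months (adjusted p = 0.0896). Ntrk2 probe sets 1 and 2 correlated at r = 0.64 over the 9 oculomotor arrays and 0.86 over the 9 cord arrays.

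The 4 arrays that stood apart were the lowest of their group on both Ntrk2 probe sets. Without them the log2 differences over the ages were 0.50 for Ntrk2 probe set 1 (adjusted p = 1.64e-06) and 0.35 for Ntrk2 probe set 2 (adjusted p = 0.000853). The call of Ntrk2 probe set 2 at 18 months was lost without replicate 1 or 3 of the oculomotor nucleus or replicate 3 of the cord (log2 differences of 0.66, 0.59 and 0.41). Ntrk2 probe set 1 lost its call at 6 months without cord replicate 1 (0.52, adjusted p = 0.0584), and at 30 months without oculomotor replicate 1 or 2 or cord replicate 3 (0.54, 0.53 and 0.35). At 6 months, with the muscle-rich cord arrays left out, its difference was 0.42 (adjusted p = 0.287).

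Ntrk2 probe set 3 (1370652_at) stayed under the floor on all 9 cord arrays, at 3.70 to 32.1, and on 6 of 9 oculomotor arrays, which ranged over 24.5 to 102. No fold is given, since the tissue means both lie at or near the floor. The annotation used does not say which TrkB transcripts, full-length or truncated, each probe set reads. Ntrk3 (1368939_a_at), which encodes the neurotrophin-3 receptor TrkC, was also under the filter. It had 93.0 to 165 in the oculomotor nucleus and 63.2 to 132 in the cord, with a log2 difference of 0.45 in the fit without the filter (adjusted p = 0.0411) and overlapping arrays.

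**Figure D2:**
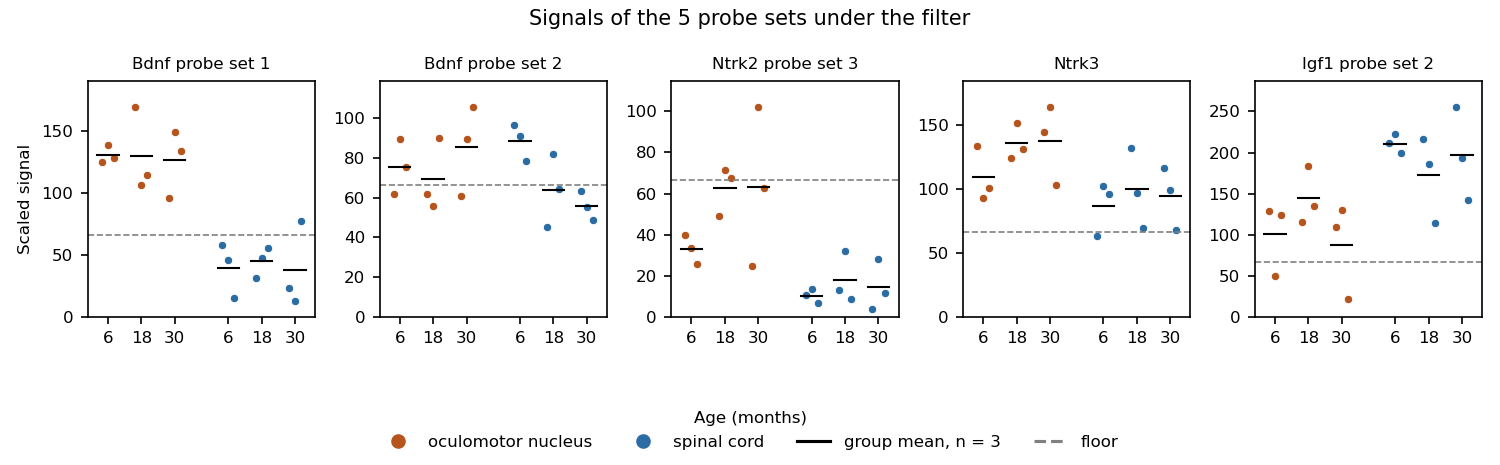
Scaled signal (linear, from 0) of the 5 probe sets under the filter, against age in months, with the oculomotor nucleus left of the spinal cord. Points are arrays, solid lines are means of 3 arrays and the dashed line is the floor of 66.4. All 9 oculomotor arrays of Bdnf probe set 1 lie above the floor, against 1 of 9 cord arrays.

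Ret, the tyrosine kinase through which GDNF and its relatives signal, had 3 probe sets that did not move alike. Ret probe set 2 (1371112_at) had oculomotor signals of 252, 216 and 229 at 6 months, 211, 203 and 261 at 18 months, with 255, 235 and 245 at 30 months. Its cord signals were 266, 358 and 321 at 6 months, 302, 283 and 319 at 18 months, with 352, 267 and 295 at 30 months. The highest oculomotor array, at 261, was below the lowest cord array, at 266, and the log2 difference was -0.39 ± 0.08 (SE; adjusted p = 0.000766). It was called at 6 months (-0.43, adjusted p = 0.0332) and at 18 months (-0.43, adjusted p = 0.0341), and was -0.31 at 30 months (adjusted p = 0.147). These 2 calls within ages were each lost in 8 of 17 alternatives, with log2 differences of -0.55 to -0.33 at 6 months and -0.54 to -0.36 at 18 months over all 17.

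Ret probe set 1 (1370989_at) averaged 769 ± 134 in the oculomotor nucleus and 694 ± 94.8 in the cord, a log2 difference of 0.14 (95% interval -0.05 to 0.33, adjusted p = 0.204). Its highest array was oculomotor replicate 3 at 30 months, 1108, where replicates 1 and 2 had 736 and 807. At 30 months the log2 difference was 0.42 (adjusted p = 0.0623), and it passed the test with the replicate number as a block among the 30-month arrays alone (adjusted p = 0.0302), a fit chosen after seeing the data. Ret probe set 3 (1388208_a_at) averaged 202 ± 35.2 and 224 ± 51.1 in the oculomotor nucleus and the cord, a log2 difference of -0.13 (95% interval -0.41 to 0.15, adjusted p = 0.44). The 3 Ret probe sets correlated with each other at r = -0.60 to 0.20 across the 9 oculomotor arrays and 0.35 to 0.57 across the 9 cord arrays. Motor neurons and midbrain dopamine neurons are both known to make Ret. Their markers went opposite ways, 5 of 5 lower and 5 of 5 higher in the oculomotor nucleus, and their part in the Ret values was not tested.

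Gfra1, the GDNF-binding partner of Ret, did not pass the test on either probe set. Gfra1 probe set 1 (1387007_at) ranged over 384 to 489.7 in the oculomotor nucleus and 420.2 to 567 in the cord, with a log2 difference of -0.14 (95% interval -0.29 to -0.0009, adjusted p = 0.0914). At 18 months its arrays did not overlap, 384 to 406 in the oculomotor nucleus and 465 to 514 in the cord, with a log2 difference of -0.31 (adjusted p = 0.065). Gfra1 probe set 2 (1367954_at) ranged over 236 to 364 and 219.6 to 364 in the oculomotor nucleus and the cord, with a log2 difference of -0.03 (95% interval -0.23 to 0.16, adjusted p = 0.801). The 2 Gfra1 probe sets correlated at r = -0.34 and -0.11 over the 9 oculomotor and the 9 cord arrays. Gdnf itself, named for its role and outside the naming rule, was under the floor on every array, at 5.90 to 12.5 in the oculomotor nucleus and 5.90 to 48.5 in the cord.

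Cntfr, the CNTF-binding subunit, passed the test between the tissues on 1 of its 2 probe sets, at 6 months. Cntfr probe set 2 (1394008_x_at) had 179, 196 and 168 in the oculomotor nucleus at 6 months, against 254, 253 and 363 in the cord at that age, which do not overlap. There the log2 difference was -0.66 (adjusted p = 0.0146). Its oculomotor signals were 219, 199 and 220.4 at 18 months, with 193, 221 and 225 at 30 months. Its cord signals were 185, 170.3 and 285 at 18 months, with 191, 228.5 and 271 at 30 months, and the tissues overlapped at both ages. There the log2 difference was 0.03 at 18 months and -0.10 at 30 months, and -0.24 over the ages (95% interval -0.47 to -0.01, adjusted p = 0.0754, or 0.048 with the replicate number as a block). The call at 6 months was lost without oculomotor replicate 3 (-0.61, adjusted p = 0.0569) or cord replicate 3 (-0.49, adjusted p = 0.0842). Cntfr probe set 1 (1392749_at) ranged over 157 to 261 in the oculomotor nucleus and 101 to 366 in the cord. Its lowest and its highest signal were both from the cord at 6 months, 101 in replicate 2 and 366 in replicate 1. Its log2 difference was -0.29 (95% interval -0.69 to 0.12, adjusted p = 0.243), and without cord replicate 2 at 6 months it was -0.48 (adjusted p = 0.00488). The 2 Cntfr probe sets correlated at r = -0.03 and 0.31 over the 9 oculomotor and the 9 cord arrays.

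Igf1r, the IGF-1 receptor (1368123_at), had 398, 368 and 274 in the oculomotor nucleus at 6 months, 396, 407 and 450.1 at 18 months, with 374, 334 and 439 at 30 months. In the cord it had 341, 634 and 517 at 6 months, 371, 378 and 417 at 18 months, with 294, 314 and 419 at 30 months. The tissues overlapped, and the log2 difference over the ages was -0.07 (95% interval -0.31 to 0.16, adjusted p = 0.614). At 6 months it was -0.49 (adjusted p = 0.0697), with -0.74 without cord replicate 1 of that age (adjusted p = 0.00556), -0.30 without cord replicate 2 (adjusted p = 0.315) and -0.33 without oculomotor replicate 3 (adjusted p = 0.293).

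**Figure D3:**
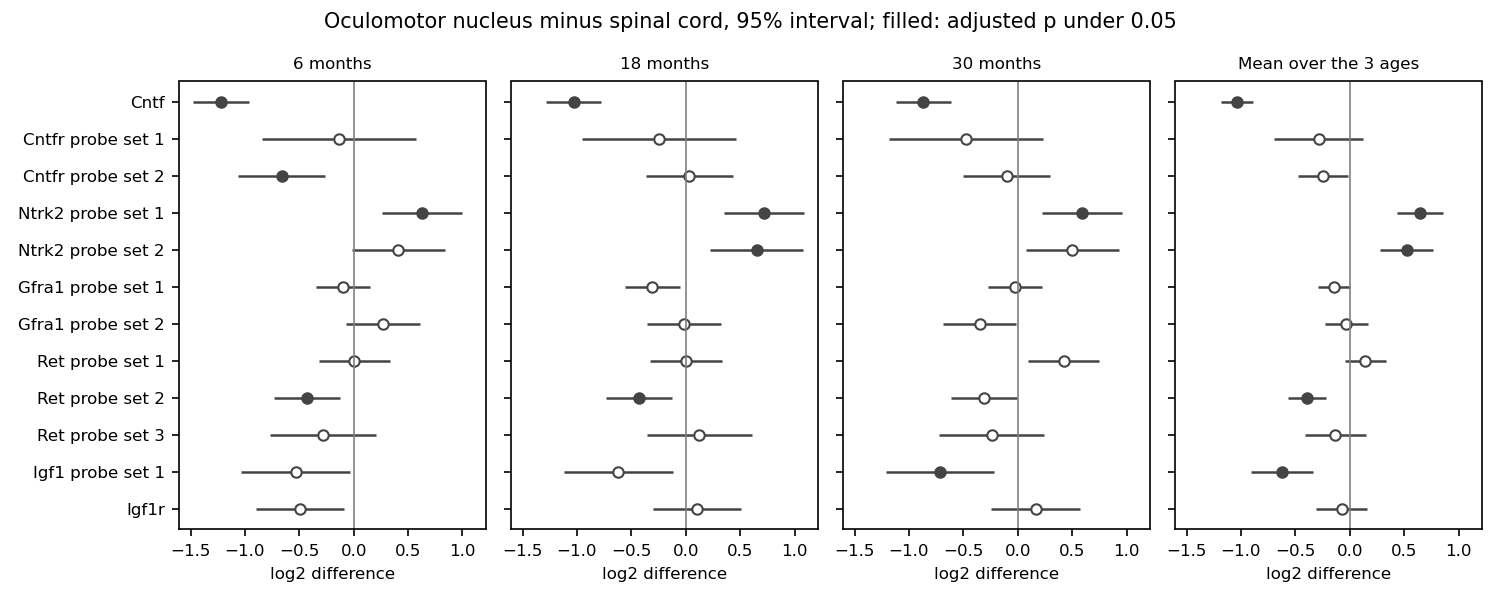
Log2 signal difference, oculomotor nucleus minus spinal cord, at 6, 18 and 30 months and as the mean over the ages, for the 12 probe sets that passed the filter. Points are estimates of the fit over 18 arrays, lines are 95% intervals and filled points had an adjusted p under 0.05. Cntf lies at -1.22, -1.03 and -0.87 at the 3 ages and Ntrk2 probe set 1 at 0.63, 0.72 and 0.59.

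The second question was whether the same transcripts change with age, with 6 months as the study's baseline. None of the 12 probe sets was called in either tissue at either later age. In the oculomotor nucleus 0 of 12 were called at 18 months, where limma called 0% of all probe sets, and 0 of 12 at 30 months, beside 0.211%. In the cord 0 of 12 were called at 18 months, beside 0.728%, and 0 of 12 at 30 months, beside 0.221%. At an unadjusted p under 0.05 the counts in the oculomotor nucleus were 0 of 12 at 18 months (background 3.39%) and 1 of 12 at 30 months (8.12%). In the cord they were 1 of 12 at 18 months (10.3%) and 1 of 12 at 30 months (10.7%). The 12 oculomotor differences had a median of 0.04 at 18 months and of -0.03 at 30 months on the log2 scale, and the 12 cord differences -0.12 and -0.09, beside a median of 0.00 over all probe sets in each comparison. The largest fold of the 12 between ages was 1.42, under the 1.70 that the study's design text names. No probe set under the filter was called between ages in the fit without the filter. For some this was fixed in advance, since all values compared had been raised to the floor. These were Bdnf probe set 1 in the cord at 18 months and Ntrk2 probe set 3 in the cord at both later ages. In that fit Bdnf probe set 2 differed by -0.41 in the cord at 30 against 6 months (adjusted p = 0.424). Its cord signals were 48.9 to 63.1 at 30 months, all under the floor, and 78.3 to 96.3 at 6 months.

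Cntf had the age difference with the smallest unadjusted p in the oculomotor nucleus. Its 30-month signals, 319.5 to 329, lay above those at 6 months, 260.2 to 284, without overlap, as did 13.9% of all probe sets in that comparison in either direction. The log2 difference was 0.26 (95% interval 0.01 to 0.52, adjusted p = 0.603). Without the second array of 30 months it was 0.25. The hexokinase ratio differed between the same groups without overlap, 1.76 to 1.91 at 30 months and 1.57 to 1.64 at 6 months, and its part was not tested. The Cntf difference was 0.01 at 18 against 6 months. In the cord the Cntf differences were -0.18 at 18 months and -0.09 at 30 months. Set against the cord change, the oculomotor change to 30 months was larger by 0.35 (95% interval -0.01 to 0.71, adjusted p = 0.909).

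In the cord the smallest unadjusted p at 30 months was that of Igf1r, with a log2 difference of -0.51 against 6 months (95% interval -0.92 to -0.10, adjusted p = 0.338). Its 6-month values spread widely, 634 and 517 in replicates 2 and 3 beside 341 in replicate 1, and the groups overlapped. Without replicate 2 at 6 months the difference was -0.31, and with the arrays that stood apart left out it was -0.91 and passed the test (adjusted p = 0.045). Replicates 1 and 2 at 6 months were also the muscle-rich arrays. The 2 muscle markers that passed the filter differed by a median log2 value of -1.74 in the same comparison, and without the muscle-rich arrays the Igf1r difference was -0.61 (adjusted p = 0.276). At 18 months the smallest unadjusted p in the cord was that of Cntfr probe set 2 (-0.46, 95% interval -0.86 to -0.06, adjusted p = 0.396).

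Igf1 showed no age difference past the test. Igf1 probe set 1 differed by 0.00 in the cord at 30 against 6 months (95% interval -0.50 to 0.50) and by -0.18 in the oculomotor nucleus (95% interval -0.68 to 0.32). Ntrk2 probe set 1 differed by -0.02 in the cord (95% interval -0.39 to 0.35) and by -0.06 in the oculomotor nucleus (95% interval -0.43 to 0.31) over the same span. These intervals reach -0.68 and 0.50 on the log2 scale for Igf1 probe set 1, and -0.43 and 0.35 for Ntrk2 probe set 1. With 3 arrays a group, changes within its own intervals remain possible for each probe set.

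**Figure D4:**
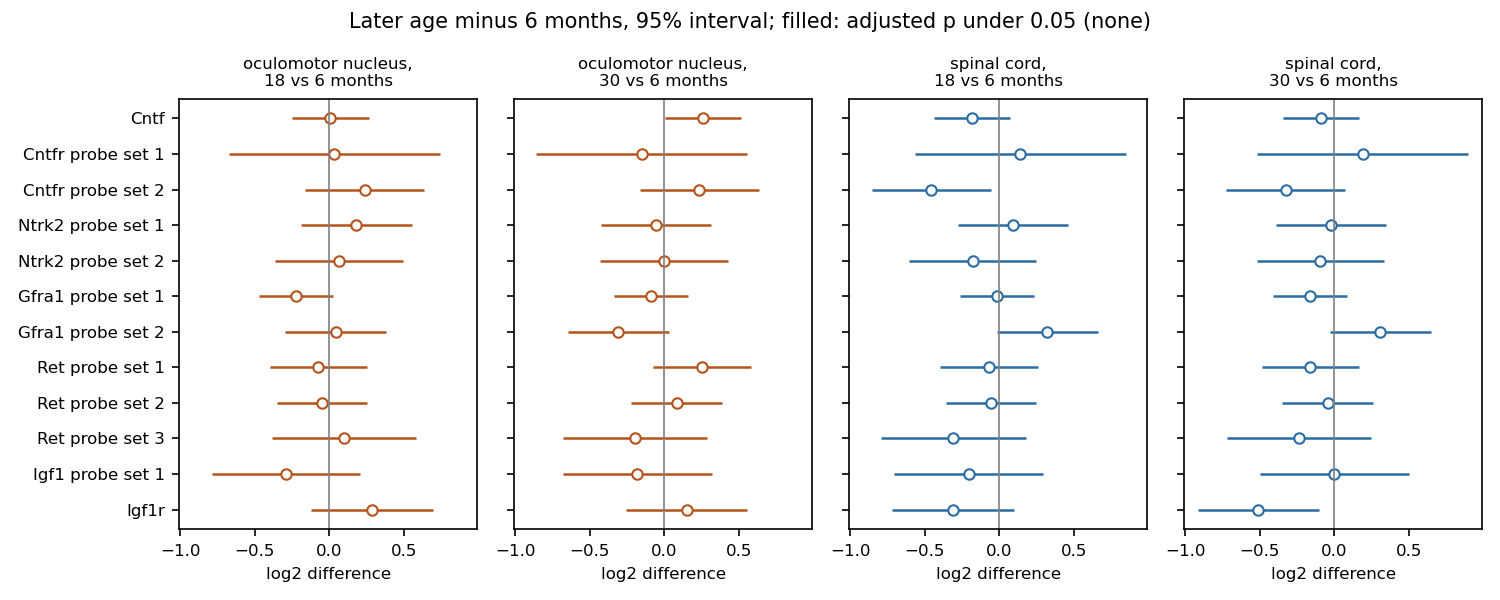
Log2 signal difference, later age minus 6 months, for the 12 probe sets that passed the filter, in the oculomotor nucleus (2 left panels) and the spinal cord (2 right panels). Points are estimates, lines are 95% intervals, and none was called. The interval leaves out 0 for Cntf in the oculomotor nucleus at 30 months (0.26), and for Cntfr probe set 2 at 18 months (-0.46) and Igf1r at 30 months (-0.51) in the cord.

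Whether age acted differently in the 2 tissues was tested directly. None of the 12 was called for the change from 6 to 18 months, as for 0% of all probe sets, nor for the change from 6 to 30 months, also beside 0%. At an unadjusted p under 0.05, 2 of 12 stood out from 6 to 18 months, beside 5.07%, and 2 of 12 from 6 to 30 months, beside 5.47%. They were Cntfr probe set 2 (0.69, adjusted p = 0.911) and Igf1r (0.60, adjusted p = 0.967) for the change to 18 months, and Gfra1 probe set 2 (-0.62, adjusted p = 0.827) and Igf1r (0.66, adjusted p = 0.905) for the change to 30 months, each as the oculomotor change minus the cord change on the log2 scale. For Gfra1 probe set 2 the 30-month means were 254 ± 29.7 in the oculomotor nucleus and 325 ± 49.2 in the cord, and the 6-month means 316 ± 45.6 and 262 ± 37.1 (SD, n = 3 each). Under the filter, Bdnf probe set 2 had 0.57 for the change to 30 months in the fit without the filter (adjusted p = 0.806).

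The genes whose signals ran most closely with each probe set were taken by the lower of 2 Pearson r over the 9 arrays of each tissue. The closest to Ntrk2 probe set 1 was Hip1 (r = 0.97 in the oculomotor nucleus and 0.91 in the cord), followed by Dpp8 and Timp2. The closest to Ntrk2 probe set 2 was Sorl1 (0.95 and 0.97), followed by Kmt2a and Bptf. Igf1r ran with Sh3gl1 (0.85 and 0.99), Ppp2r5a and Vcf2, and Ret probe set 3 with Scn3b (0.88 and 0.85), Mark2 and Rbfox3. Cntf was closest to Cdadc1 (0.79 and 0.74), Myo6 and Ptprd, and Igf1 probe set 1 to Wdr6 (0.78 and 0.73), Esrra and Fabp3. The closest to Cntfr probe set 1 was Gphn (0.86 and 0.83), to Cntfr probe set 2 Ccp110 (0.73 and 0.73), to Gfra1 probe set 1 Dhx57 (0.85 and 0.87) and to Gfra1 probe set 2 Smpd1 (0.79 and 0.78). Ret probe set 1 ran with Usp9x (0.72 and 0.67) and Ret probe set 2 with Mrpl33 (0.80 and 0.79). The arrays share their ages and the 4 that stood apart, so these values describe the arrays and carry no test.

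Other genes of these pathways were described by lists, whose counts stand beside the 47.2% of all probe sets called, 23.6% in each direction. Of the other trophic ligands, 12 of 21 on the array passed the filter, 1 higher and 3 lower in the oculomotor nucleus over the ages, with a median log2 difference of -0.14. The higher one was Vegfa, an endothelial growth factor that also acts on neurons (0.52). Igf2 (-1.12), Vegfb (-0.50) and Fgf9 (-0.33) were lower. Of the other receptors and co-receptors, 4 were higher and 7 lower of 18 tested, with a median of -0.14. Il6st, the gp130 subunit through which CNTF signals, had 1016 to 1187 in the oculomotor nucleus and 1379 to 1774 in the cord without overlap (-0.53, adjusted p = 2.94e-07). Gfra2, which binds the GDNF relative neurturin, went the other way, with 608 to 899 in the oculomotor nucleus and 360.2 to 515 in the cord (0.75, adjusted p = 1.48e-07). Fgfr2 (-0.51) and Kdr (-0.71) were also among the 4 with the smallest p. All values in parentheses are log2 differences.

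The IGF-binding proteins, which hold IGF-1 and IGF-2 outside cells, had 4 of 8 members tested. Igfbp2 (-1.39), Igfbp7 (-1.02) and Igfbp6 (-1.17) were lower in the oculomotor nucleus and Igfbp5 (0.42) was higher. Igfbp2 had signals of 611 to 1301 in the oculomotor nucleus and 2001 to 2807 in the cord. Their median log2 difference was -1.09, beside 0.01 over all probe sets. The 8 of 8 lower meninges markers and the 7 of 7 lower microglia markers given above, beside 23.6% of all probe sets, moved the same way. The part of these markers in the differences of the IGF-binding proteins was not tested. Of the signalling genes below the receptors, 5 were higher and 6 lower of 22 tested, near the share over all probe sets, with a median of 0.02. Those with the smallest p were Maged1 (0.64) and Bex3 (0.50), which bind the neurotrophin receptor p75, Pik3r1 (-0.80), a regulatory subunit of PI 3-kinase, and Map2k1 (0.43), the kinase upstream of ERK.

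With age, Igf2 was the only gene of these 4 lists that passed the test. It fell in the oculomotor nucleus at 30 months to 534, 595 and 462, against 1251, 1290 and 959 at 6 months, a log2 difference of -1.13 (2.19-fold, adjusted p = 0.00904). At 18 months the signals were 921, 1022 and 768. In the cord the Igf2 signals were 1913, 1535 and 2298 at 6 months, 2043, 1984 and 1579 at 18 months, with 2201, 1406 and 1367 at 30 months, and the difference at 30 months was -0.22 (adjusted p = 0.721). The oculomotor change minus the cord change was -0.91 (adjusted p = 0.712). Igf2 is also a meninges marker. In the oculomotor nucleus at 30 against 6 months, all 8 meninges markers lay lower, with a median log2 difference of -0.80. Of the 8, 3 were called, Igf2 included, beside 0.211% of all probe sets. Their summed signals were 7285 to 9181 at 30 months and 11020 to 11950 at 6 months. Most of this signal came from Ptgds, with a mean of 7887 over the oculomotor arrays, and the sums include Igf2 itself. The part of the meninges markers in the Igf2 difference was not tested. The hexokinase ratio separated the same arrays, 1.76 to 1.91 at 30 months and 1.57 to 1.64 at 6 months, and its part was not tested either. The Igf2 difference was called in 14 of 19 alternatives, chosen for it after seeing the data, and was -1.27 to -1.04 over all 19. The call was lost without the filter (adjusted p = 0.151), and, with smaller adjusted p, without the choroid-rich arrays and without replicate 1 or 2 of 6 months or replicate 3 of 30 months. Of the genes short of the test, Igfbp2 differed by -0.53 in the oculomotor nucleus at 18 months (adjusted p = 0.9998) and Tgfbr1, a TGF-beta receptor, by 0.61 in the cord at 18 months (adjusted p = 0.0527).

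**Figure D5:**
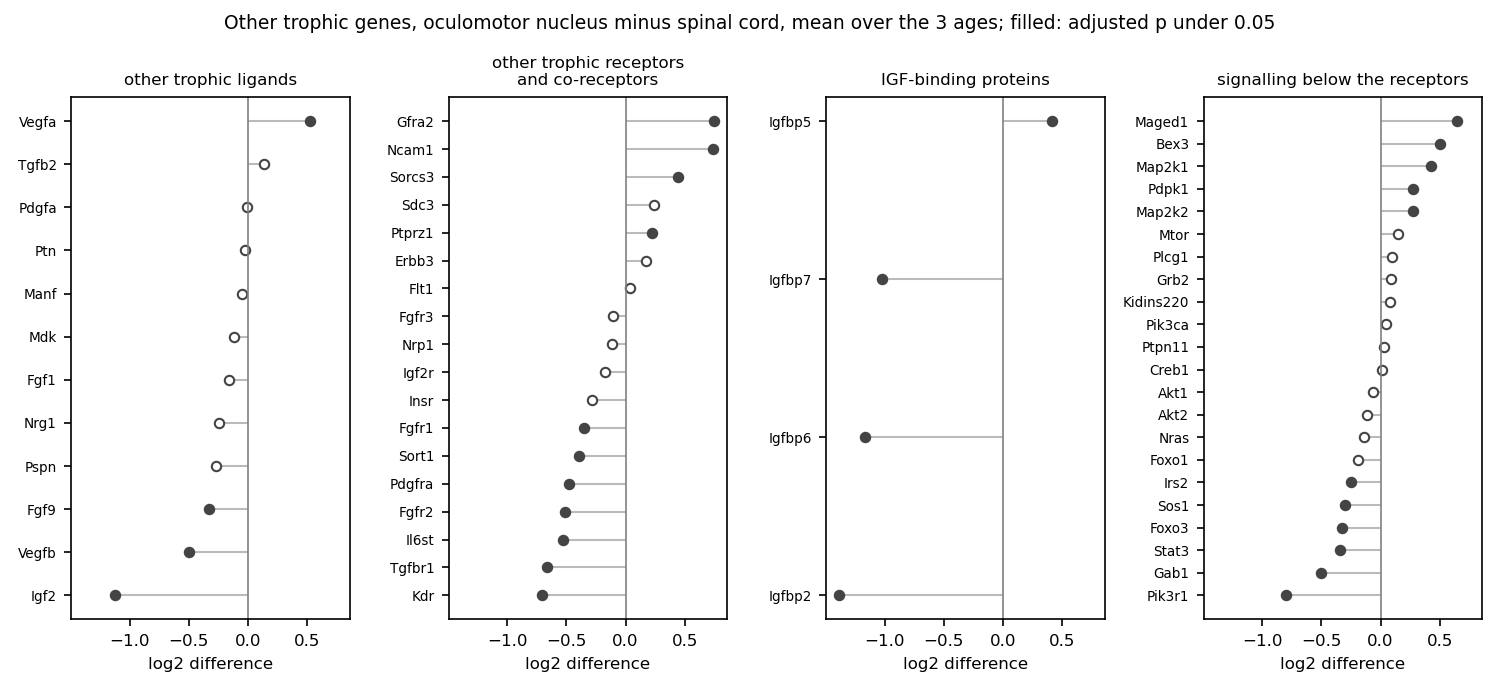
Log2 signal difference, oculomotor nucleus minus spinal cord, mean over the 3 ages, for the other trophic genes that passed the filter, in 4 lists. Filled points had an adjusted p under 0.05 in the fit over all probe sets. Igfbp2 lies farthest left at -1.39 and Gfra2 farthest right at 0.75.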

How the data were processed

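RNA from rat oculomotor nucleus and spinal cord was hybridised to 18 Affymetrix RA230 arrays. The deposited table holds 1 linear intensity per probe set and array, made with MAS5 per the submitters' processing notes, without detection calls. Its 2% trimmed mean was 500.083 to 500.101 on every array, read from the values. The design text speaks of 4 replicates a group while the labels give 3, which were followed.

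Signals were scaled to a common 2% trimmed mean (factors 0.999981 to 1.00002), raised to the pooled 20th percentile (66.4) and put on the log2 scale. The 57 control probe sets were removed, and probe sets over the pooled 40th percentile of mean log2 signal were kept. Group means over the 18 arrays were estimated by limma 3.58.1 (R 4.3.3; empirical Bayes with trend, 12 residual degrees of freedom, 2-sided tests, Benjamini-Hochberg adjustment over the 9482 kept). There were 10 comparisons. The script was tested on simulated data. The number of arrays limits the precision.

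In the platform annotation, 12789 probe sets named 1 gene, 312 several and 2822 none; 12754 were matched by Entrez identifier. Every probe set of the 9 genes is named. Each other trophic list is named by up to 4 genes with the smallest p for the tissue difference, and each tested probe set by the 3 genes most like it, of which the closest is given for all. Members, lists, alternatives and the arrays that stand apart were chosen with earlier results of these data known, and the promoters and motifs after these results were seen. Promoter windows (RefSeq, GRCr8) were matched by symbol for 6 of the 9 genes and searched in Python 3.11.15.

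Alternatives were quantile normalization, median centring, no floor, a pseudocount of 50, no filter, a filter at the 60th percentile, no trend, each tissue alone, the replicate number or the arrays apart as a block, and leaving out each array, the muscle-rich, the choroid-rich or the apart arrays. Same-numbered arrays of the tissues at 30 months deviated together (r = 0.121, 0.235 and 0.501 for numbers 1 to 3), and the replicate number was also tried as a block there. No other pair of groups had all 3 correlations over 0.1. The oculomotor arrays of 30 months and the cord arrays of 18 months, pools of different ages, had 0.076, 0.258 and 0.418. These correlations thus do not show that the numbers pair the arrays, and the labels do not say so.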

Additional observations from a re-analysis of the deposited data

How the results depend on the processing

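The 16 member differences called in the main fit had 345 values under the alternatives, of which 307 stayed called, 38 lost the call and 0 changed direction. Cntf was called for the tissue difference over the ages in 30 of 30 alternatives (log2 difference -1.10 to -0.92), Ntrk2 probe set 1 in 30 of 30 (0.50 to 0.69) and Ntrk2 probe set 2 in 30 of 30 (0.35 to 0.57). Ret probe set 2 was called in 29 of 29 (-0.43 to -0.33) and Igf1 probe set 1 in 29 of 29 (-0.75 to -0.37). Of the 87 differences with an unadjusted p over 0.05, 142 of 1750 values changed sign. The cause of the changes below was not tested, beyond the fewer probe sets or arrays that a setting leaves.

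The 5 member probe sets called over the ages, Ntrk2 probe sets 1 and 2 among them, became 8 of 17 without the filter. With the stricter filter they became 3 of 6. Without the muscle-rich arrays 8 were called, and the single-array omissions gave 5 to 6. At 6 months the 4 called became 2 with the stricter filter, 2 without the muscle-rich and 1 without the choroid-rich arrays, and 2 to 4 with single arrays left out. At 18 months the 4 called became 2 without the choroid-rich arrays and 2 to 4 with single arrays left out. At 30 months the 3 called became 1 to 2 with single arrays left out. In the cord at 30 against 6 months the 0 called became 1, Igf1r, with the arrays that stood apart left out, an alternative chosen after seeing the data. The tissue difference at 6 months changed sign for Igf1 probe set 1 without the muscle-rich arrays (0.21). For Cntfr probe set 1 it did so with the apart arrays as a block (0.075) or left out (0.22) and without 3 single arrays, the single-array omissions giving -0.71 to 0.22. It was called without replicate 2 of the cord (-0.71).

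With the replicate number as a block, Cntfr probe set 2 was called over the ages (-0.24, adjusted p = 0.048). With the replicate block at 30 months, chosen after seeing the data, Ret probe set 1 was called there (0.42, adjusted p = 0.0302). Neither block changed another member's call, and the counts stayed within 1.5 times.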
